A study of Mus musculus with 46 samples.

Results

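Messenger RNA of 40 genes of DNA replication and S phase was followed in 46 AB1-HA tumors, before and after cyclophosphamide (CY) chemotherapy. The 40 genes were chosen by name: the Mcm2 to Mcm7 helicase with Mcm8 and Mcm10, the factors that license and fire replication origins, enzymes of the lagging strand and the nucleotide pool, S phase cyclins and E2F transcription factors, proteins that copy chromatin, and checkpoint and repair proteins of the replication fork. All 40 of 40 were found among the 46012 entries of the count table, and all 40 passed the filter on low counts in every comparison. AB1-HA is a mouse mesothelioma line that carries an influenza haemagglutinin. It was grown under the skin of male BALB/c mice, 8 to 10 weeks old by the labels, as a pair of tumors per mouse, and every mouse was given CY at 200 mg/kg on day 10 after inoculation. A single tumor per mouse was resected and sequenced, and the tumor left in place sorted the mouse into complete responders (CR) or PR, progressors in the paper and partial responders in the labels. The response therefore belongs to the mouse and not to the tumor sequenced. There were 13 CR and 13 PR tumors from 1 day before CY (Day-1, day 9 after inoculation), 5 CR and 5 PR tumors from 3 days after CY (Day+3, day 13) and 5 CR and 5 PR tumors from 7 days after CY (Day+7, day 17), each from a different mouse. No untreated tumors of day 13 or 17 were analysed here, so time after CY and tumor age cannot be told apart.

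DNA is copied once per cell cycle, in S phase. Before S phase the origin recognition complex, helped by Cdc6 and Cdt1, loads the ring of Mcm2 to Mcm7 onto DNA, a step that geminin (Gmnn) blocks after the origin has been used. The kinase Cdc7 and cyclin E kinases then fire the origin, and Cdc45 and the GINS proteins join the ring to make the working helicase. Most of these genes are switched on together by E2F factors when a cell leaves G1, while E2f7 and E2f8 close the programme down again. CY is an alkylating drug that crosslinks DNA, and crosslinks stop replication forks. The p53 target Cdkn1a encodes p21, an inhibitor of the cyclin-dependent kinases that start S phase.

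Promoters were searched for words of the E2F site. RefSeq windows of 250 bases before to 50 bases after the start site (GRCm38.p6) were found for 31 of the 40 genes. The words TTTCCCGC, TTTGGCGC or TTTCGCGC, searched on both strands as forms of the E2F site, occurred in 17 of these 31 genes (54.8%), in 276 of 8211 genes with a window among those tested between days (3.36%), and in 573 of 27025 genes with a window in all (2.12%). For comparison, the word TTTGAA, part of the cell cycle homology region of many mitotic genes, was in 9 of 31 (29%) against 16.2% of the genes tested, and CCAAT in 19 of 31 (61.3%) against 42.3%. A match is a run of letters and was not tested as a binding site. The words were not found in the windows of 14 of the 31, among them Mcm2, Chek1, Blm, Chaf1b and E2f8. The windows below belong to genes that fell after CY with the word (Mcm6 and Hells) and without it (E2f8), and to the members that rose furthest at Day+3 and at Day+7, Gins3 and E2f2. They are printed 5′ to 3′ in the direction of the gene, with the E2F words in capitals. They lie at chr1:128359656-128359955 (minus strand), chr19:38930740-38931039 (plus strand), chr7:48881547-48881846 (minus strand), chr8:95633309-95633608 (plus strand) and chr4:136172024-136172323 (plus strand). Mcm6 held 3 matches, of which 2 overlap on opposite strands, and Hells, Gins3 and E2f2 held 1 each.
Mcm6: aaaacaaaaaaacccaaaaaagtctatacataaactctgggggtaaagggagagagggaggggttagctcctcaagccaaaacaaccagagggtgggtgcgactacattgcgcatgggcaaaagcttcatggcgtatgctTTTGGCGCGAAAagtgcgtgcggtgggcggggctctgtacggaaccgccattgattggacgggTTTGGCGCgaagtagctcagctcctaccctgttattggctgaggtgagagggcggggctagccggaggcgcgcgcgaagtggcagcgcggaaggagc
Hells: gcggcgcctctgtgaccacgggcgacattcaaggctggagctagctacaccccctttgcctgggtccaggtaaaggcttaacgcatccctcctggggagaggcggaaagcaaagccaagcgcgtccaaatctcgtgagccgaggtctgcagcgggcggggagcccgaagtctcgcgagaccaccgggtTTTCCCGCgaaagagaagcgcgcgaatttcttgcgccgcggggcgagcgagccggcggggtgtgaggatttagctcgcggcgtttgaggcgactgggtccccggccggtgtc
E2f8: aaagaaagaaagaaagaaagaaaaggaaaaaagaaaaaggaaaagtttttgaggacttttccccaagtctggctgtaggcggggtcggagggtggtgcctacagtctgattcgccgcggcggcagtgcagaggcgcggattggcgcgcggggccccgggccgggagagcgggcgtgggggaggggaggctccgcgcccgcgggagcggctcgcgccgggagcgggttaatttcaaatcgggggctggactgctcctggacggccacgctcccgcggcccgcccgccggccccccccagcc
Gins3: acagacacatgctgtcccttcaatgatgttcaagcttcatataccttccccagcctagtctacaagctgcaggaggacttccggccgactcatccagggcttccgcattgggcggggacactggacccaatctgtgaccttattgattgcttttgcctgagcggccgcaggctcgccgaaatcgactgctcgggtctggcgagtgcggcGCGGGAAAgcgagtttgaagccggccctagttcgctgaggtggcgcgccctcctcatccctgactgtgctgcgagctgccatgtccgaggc
E2f2: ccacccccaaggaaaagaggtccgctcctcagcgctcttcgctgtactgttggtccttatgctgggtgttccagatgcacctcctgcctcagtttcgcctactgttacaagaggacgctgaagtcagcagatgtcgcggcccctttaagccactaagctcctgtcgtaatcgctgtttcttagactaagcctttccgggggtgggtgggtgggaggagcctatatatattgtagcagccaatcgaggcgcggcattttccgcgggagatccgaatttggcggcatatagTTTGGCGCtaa

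Total counts per tumor over the genes covered ran from 10227681 to 14218987 at Day-1, from 15412744 to 18748688 at Day+3 and from 16047930 to 19446596 at Day+7, so depth moved with time. The shallowest member, Dscc1, still had at least 72 counts in every tumor. The values below are CPM, the counts of a gene per 1000000 counts of the tumor, on library sizes scaled by the trimmed mean of M values (TMM). Of 9 mesothelial and tumor markers, Msln and Cdh2 were well above 1 CPM before CY, while Krt18, Krt19, Lrrn4, Gpm6a and Bnc1 averaged under 1 CPM on every day. Krt5, a keratin of the skin, was above 10 CPM in 10 tumors at Day-1, 1 at Day+3 and 5 at Day+7, called Krt5-high tumors below. At Day+7 the CR tumor CT7_6 stood apart from the other 9. It had the highest summed level of 5 fibroblast genes (31700 CPM, against 10400 to 16500 in the others) and the lowest of 6 general leukocyte genes (2850 CPM, against 4120 to 5350). Counts at Day+7 are therefore also given without it. In RNA from whole tumors, fewer cells of a kind and less RNA per cell cannot be told apart.

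**Figure D1:**
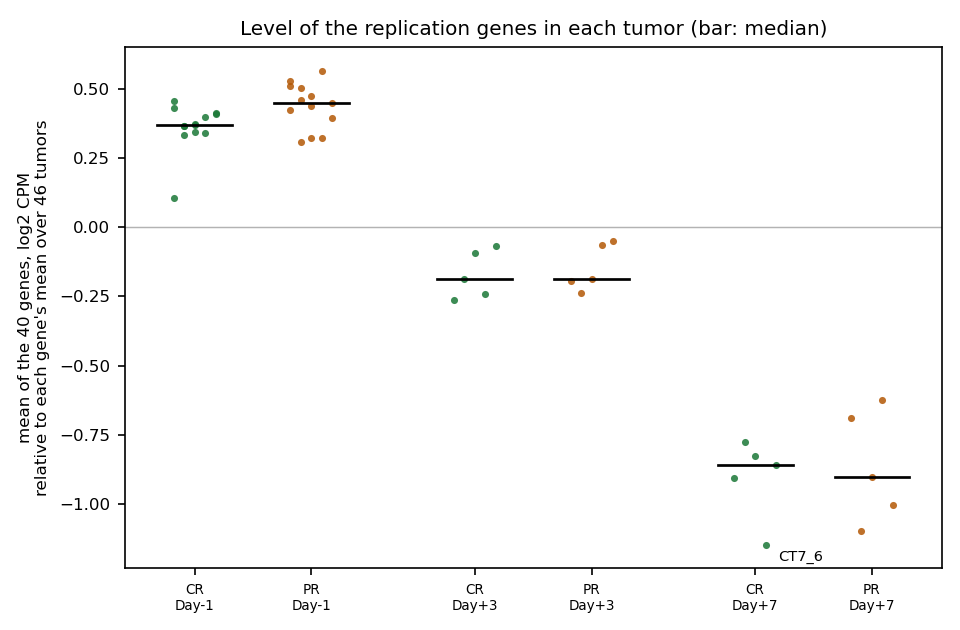
Level of the 40 replication genes in each tumor, as the mean over the genes of log2 CPM relative to each gene's own mean over all 46 tumors; each point is a tumor, CR green and PR brown, and the bar is the group median. Day-1 tumors lay between 0.11 and 0.57, Day+3 tumors between -0.26 and -0.05 and Day+7 tumors between -1.15 (CT7_6) and -0.62, so the days did not overlap, while CR and PR overlapped on each day.

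On average the replication genes fell after CY and fell further between Day+3 and Day+7, although some members did not. Their mean level, on a log2 scale relative to all 46 tumors, was 0.401 ± 0.0909 at Day-1 (SD, n = 26), -0.159 ± 0.0826 at Day+3 (SD, n = 10) and -0.883 ± 0.167 at Day+7 (SD, n = 10), or -0.853 at Day+7 without CT7_6. The lowest Day-1 tumor, the CR tumor CT10 at 0.11, stood above the highest Day+3 tumor at -0.05. The plot of this level by tumor shows 3 separate bands with the responses mixed inside each.

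Gene by gene, edgeR's quasi-likelihood test with Benjamini-Hochberg adjustment over 13194 genes (FDR under 0.1) called 32 of the 40 lower and 1 higher at Day+3 than at Day-1. Of all genes tested, 39.6% were called lower and 37.9% higher in that comparison, since most of the transcriptome moved. The median log2 fold change was -0.542 over the 40 genes and -0.024 over all genes. In 21 of the 40 genes every Day+3 tumor lay below every Day-1 tumor, which held for 14.7% of all genes, and in 1 (Gins3) every Day+3 tumor lay above (12.2% of all genes). From Day+3 to Day+7 the test called 36 of the 40 lower and 3 higher at the later day (36.5% and 38.8% of all genes), with a median of -0.847 against 0.022 over all genes. In 30 of the 40 genes all Day+7 tumors lay below all Day+3 tumors (17.2% of all genes).

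Set against Day-1, Day+7 tumors were lower in 36 of the 40 and higher in 1, where 42.8% of all genes were called lower and 43% higher. The median log2 fold change of the 40 was -1.434 and all genes had a median of -0.006. Without CT7_6, 35 were called lower and 3 higher (E2f2, Ccne1 and Fen1), with a median of -1.394, and against Day+3 the counts without it were 36 lower and 3 higher. With library totals alone in place of TMM the median of all genes itself shifted to 0.095 at Day+3, -0.170 at Day+7 against Day-1 and -0.261 at Day+7 against Day+3, and the share of all genes called higher and lower became 44.5% and 33.1%, 37.4% and 48.9%, and 26.6% and 52.3%. Calls of the 40 held in all 55 alternatives for 30 of 33 genes at Day+3, 36 of 37 at Day+7 against Day-1 and 38 of 39 at Day+7 against Day+3. The exceptions are Mcm7, Orc6, Dut, Gmnn and Fen1, described below.

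**Figure D2:**
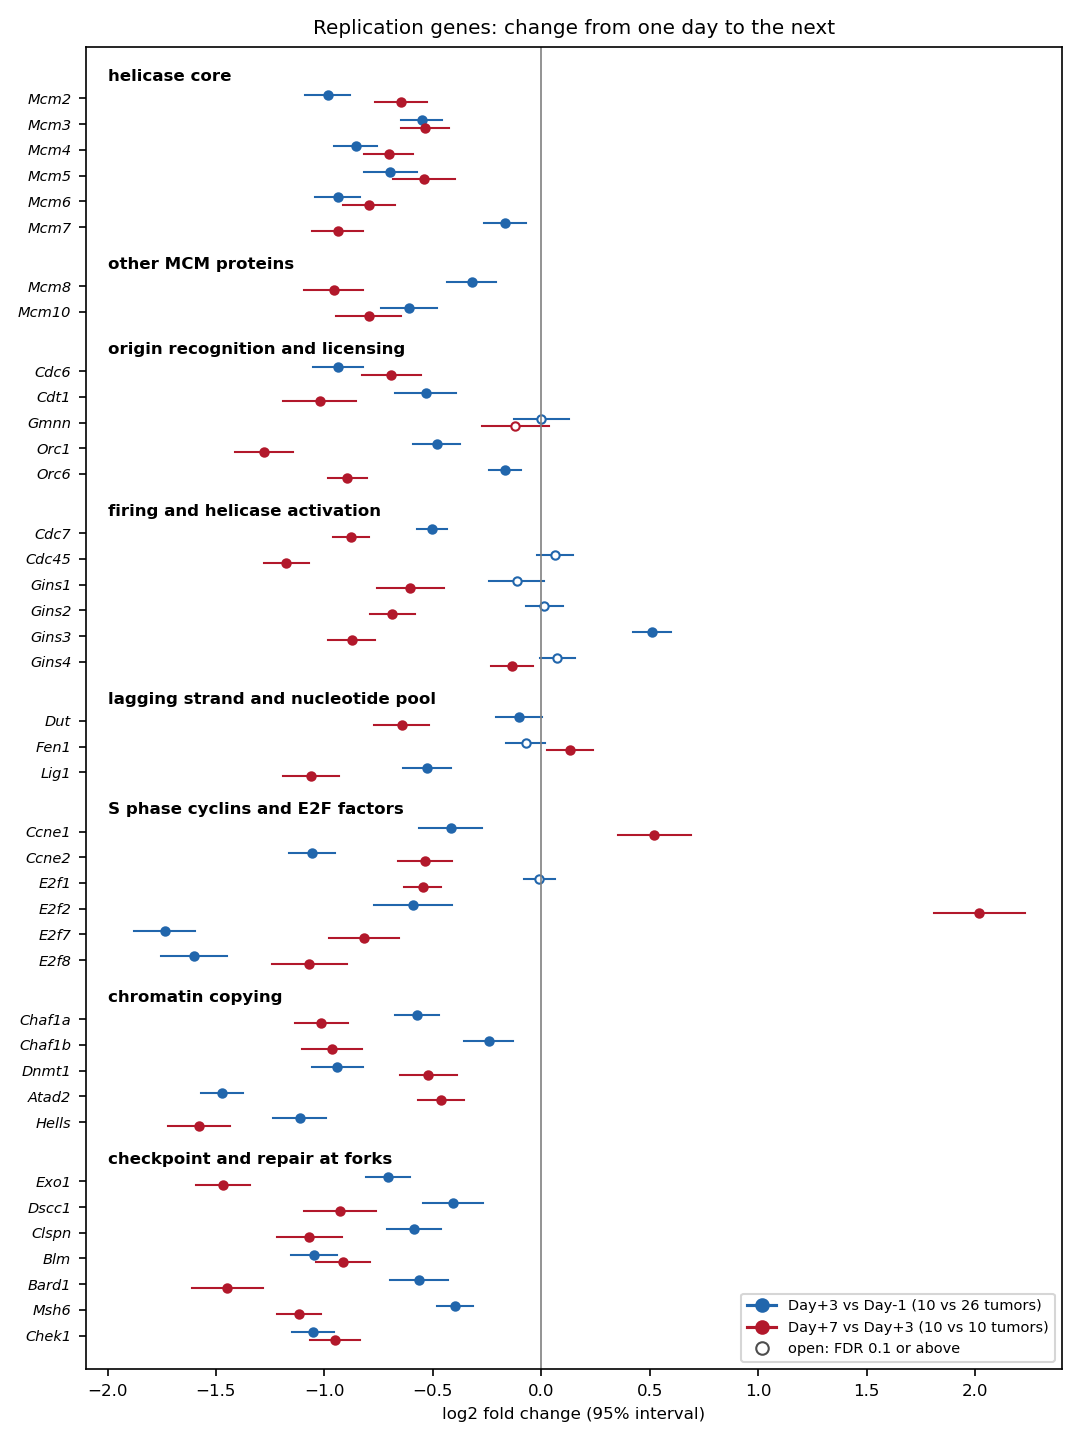
Log2 fold change of each replication gene at Day+3 against Day-1 (blue) and at Day+7 against Day+3 (red), grouped by role; bars are 95% intervals, and open points did not pass an FDR of 0.1. Most points lie left of 0 in both steps; E2f2 stands at -0.59 and then 2.02, Gins3 at 0.51 and then -0.88, and the GINS genes and Cdc45 lie near or above 0 in the first step.

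The 6 helicase subunits all fell in both steps. Mcm6, the most abundant of them in counts, had a median of 383 CPM at Day-1 (303 to 434), 204 at Day+3 (180 to 221) and 116 at Day+7 (85.1 to 140). The 3 days did not overlap, and the log2 fold change was -0.94 (SE 0.0532) at Day+3 against Day-1 and -0.80 (SE 0.0613) at Day+7 against Day+3. Mcm2 followed the same course, with medians of 214, 109 and 70.1 CPM at Day-1, Day+3 and Day+7. Mcm4 had medians of 265, 147 and 86.1 CPM on the same days. Mcm3 had the smallest change of the 6 over the whole course, -1.09 (SE 0.0498) at Day+7 against Day-1, and Mcm5 had -1.24 (SE 0.0646). Mcm7 behaved differently in time: at Day+3 it was at 233 CPM (208 to 255), against 260 at Day-1 (227 to 312), and it fell mainly afterwards, to 122 CPM at Day+7 (95.8 to 153). Its first step of -0.17 (SE 0.05) was -0.05 with library totals alone and lost its call there and without the Krt5-high tumors, whereas its second step of -0.94 kept its call. The proteins work as 1 ring, while the RNA of its parts changed at Day+3 by values from -0.98 for Mcm2 to -0.17 for Mcm7.

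Mcm8, a helicase of repair at stalled forks, and Mcm10, which helps start the fork, are MCM proteins by name that are not part of the ring. Mcm8 had 20.4 CPM at Day-1 (16.5 to 23.3), 16.2 at Day+3 (13.8 to 17.9) and 8.25 at Day+7 (6.22 to 10.5). Mcm10 had 66.6, 43.9 and 26.1 CPM as medians of the 3 days. Both were called lower in each step.

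Among the licensing genes, Cdc6 fell most at Day+3, and Orc1 fell most at Day+7. Cdc6, the loader of the helicase, had a median of 66.0 CPM at Day-1 (52.1 to 76.0), 34.3 at Day+3 (30.6 to 37.4) and 20.8 at Day+7 (15.7 to 25.5). Orc1, the largest subunit of the origin recognition complex, had 31.0 CPM at Day-1 (26.4 to 35.4), 22.4 at Day+3 (18.8 to 24.4) and 8.94 at Day+7 (7.47 to 11.4), with no overlap between any of the days. Its second step of -1.28 (SE 0.0684) exceeded its first of -0.48 (SE 0.0560). Cdt1, the partner of Cdc6 in loading, changed by -0.53 (SE 0.0720) and then -1.02 (SE 0.0866). Orc6, a small subunit of the same complex, hardly moved at Day+3 (80.3 CPM, against 89.1 at Day-1) and then dropped to 43.9 CPM at Day+7. Its first step of -0.17 (SE 0.0380) was -0.05 with library totals alone and lost its call there and without the Krt5-high tumors.

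Gmnn, the inhibitor of licensing, was not called in the main edgeR fit at Day+3 against Day-1 or at Day+7 against Day+3. It stood at 44.4 CPM at Day-1 (30.5 to 49.2), 44.7 at Day+3 (38.1 to 47.7) and 41.9 at Day+7 (21.7 to 49.0). The log2 fold change was 0 (SE 0.065) at Day+3 against Day-1 and -0.12 (SE 0.0657, adjusted p = 0.0873) at Day+7 against Day-1. The Day+7 call was lost in 29 of 55 alternatives, among them DESeq2 (-0.09) and leaving out CT7_6, the tumor at 21.7 CPM (-0.03, adjusted p = 0.521), and turned sign in 1. Library totals alone gave 0.12 (adjusted p = 0.0649) at Day+3, -0.29 (adjusted p = 2.85e-05) at Day+7 against Day-1 and -0.41 (adjusted p = 1.74e-06) at Day+7 against Day+3. At Day+7 against Day+3, 8 of 55 alternatives called Gmnn lower.

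Genes that fire origins and switch the helicase on split by time. Cdc7, the firing kinase, fell in each step, with 71.8 CPM at Day-1 (64.7 to 80), 50.4 at Day+3 (47.3 to 55.3) and 27.6 at Day+7 (22.1 to 30.4). Cdc45, which joins the ring at firing, was at 62.6 CPM at Day-1 (54.2 to 75.3) and 67.6 at Day+3 (58.2 to 72.2), and only then fell to 29.4 CPM at Day+7 (22.9 to 34.5). Its log2 fold change was 0.06 (SE 0.0432, adjusted p = 0.179) at Day+3 and -1.17 (SE 0.0533) at Day+7 against Day+3. Its first step was called higher in 16 of 55 alternatives, at 0.10 (adjusted p = 0.0423) with DESeq2's size factors and at up to 0.18 (adjusted p = 0.000237) with library totals alone.

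The 4 GINS genes encode the other part of the working helicase. Gins3 rose at Day+3 and was the member of the 40 called higher then. It had 26, 27.2, 31.2, 32 and 33.3 CPM in CR tumors and 28.2, 30.4, 30.9, 31.6 and 32 CPM in PR tumors at Day+3, against 19.1 to 23.1 CPM at Day-1 (median 21.4). All 10 Day+3 tumors lay above all 26 Day-1 tumors. The log2 fold change was 0.51 (SE 0.0444, adjusted p = 5.19e-14) and stayed positive and called in every alternative run. At Day+7 Gins3 was at 16.5 CPM (13.8 to 21.4), below Day+3 in every tumor. Gins2 was at 116 CPM at Day-1, 117 at Day+3 and 73.2 at Day+7. Gins1 had medians of 22.1, 20.1 and 13.0 CPM at Day-1, Day+3 and Day+7, and its first step of -0.11 (adjusted p = 0.112) was called lower in 12 of 55 alternatives. Gins4 was at 45.5 CPM at Day-1, 47.0 at Day+3 and 43.5 at Day+7, and of the 4 it alone was not called at Day+7 against Day-1 (-0.06, SE 0.0419, adjusted p = 0.162), although library totals alone called it lower there (-0.23). Its value at Day+3 of 0.07 (adjusted p = 0.103) was called higher in 26 of 55 alternatives, at up to 0.20. None of these 4 genes was called lower at Day+3 in the main edgeR fit, when all 6 Mcm2 to Mcm7 genes were. That difference was not tested as such.

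Enzymes of the lagging strand differed from each other. Lig1, the ligase that joins Okazaki fragments, had 273 CPM at Day-1 (199 to 315), 188 at Day+3 (165 to 212) and 89.1 at Day+7 (74.7 to 113). Fen1, the nuclease that trims the same fragments, had 74.4 CPM at Day-1 (62.6 to 80), 69.5 at Day+3 (64.1 to 74.9) and 77.7 at Day+7 (54.4 to 93.7). The pair acts at the same nick, and in RNA Lig1 fell by 1.59 on the log2 scale (SE 0.0594) at Day+7 against Day-1, where Fen1 had 0.06 (SE 0.0458, adjusted p = 0.220). Fen1 was called higher at Day+7 than at Day+3 (0.13, SE 0.0550, adjusted p = 0.03), but with library totals alone it was called lower (-0.16, adjusted p = 0.00469), so its direction depends on the scaling. Dut, which keeps uracil out of DNA, was at 98.0, 92.9 and 59.1 CPM over the 3 days. Its call at Day+3 (-0.10, SE 0.0539, adjusted p = 0.0793) was lost in 21 of 55 alternatives and turned to 0.02 with library totals alone.

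The cyclins and E2F factors held the steepest falls of the 40 at Day+3 and also the 1 gene called higher at Day+7 against Day-1. E2f7, a repressor E2F, had 82.3 CPM at Day-1 (54.6 to 102), 23.7 at Day+3 (20.7 to 30.6) and 13.1 at Day+7 (11.8 to 16.9). E2f8, its close relative, had 188 CPM (139 to 247), 62.9 CPM (53.4 to 67.7) and 29.2 CPM (17.4 to 37.1) on the same days. No tumor overlapped between any pair of days in either gene. At Day+3 E2f7 and E2f8 had the largest fold changes of the 40, -1.74 (SE 0.0713) and -1.60 (SE 0.0780). E2f1, an activator of S phase genes, was unlike them: it had 77.8 CPM at Day-1 (66.6 to 88.1) and 77.1 at Day+3 (71.5 to 82.0), then 53.3 at Day+7 (44.9 to 57.4). Its log2 fold change at Day+3 was -0.01 (SE 0.0360, adjusted p = 0.839), and with library totals alone it was called higher, at 0.11 (adjusted p = 0.00372).

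E2f2 went the other way at Day+7. This activator E2F is known for its part in proliferating blood cells, red cell precursors and lymphocytes among them. At Day+7 it had 30.2, 48.9, 56.6, 60.7 and 79.1 CPM in CR tumors and 49.2, 50.0, 50.2, 69.5 and 78.0 CPM in PR tumors, against 10.6 to 17.6 CPM at Day+3 (median 14). At Day-1 it had 18.6 to 27.3 CPM (median 20.9). All 10 Day+7 tumors lay above every tumor of the other days, and all 10 Day+3 tumors lay below every Day-1 tumor. The log2 fold change was -0.59 (SE 0.0909) at Day+3 against Day-1, 2.02 (SE 0.107, adjusted p = 4.02e-21) at Day+7 against Day+3 and 1.43 (SE 0.0818) at Day+7 against Day-1, or 1.51 without CT7_6, its lowest Day+7 tumor.

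Markers of some blood cells moved with E2f2 and others did not. The summed level of 4 red cell genes was 14.3 to 100 CPM at Day-1, 2.53 to 7.54 CPM at Day+3 and 178 to 452 CPM at Day+7, the same order of the days. All 4 of these genes were called higher at Day+7 than at Day+3, with a median log2 fold change of 4.78. At Day+3, 3 of the 4 were called lower than at Day-1, and Alas2 averaged under 1 CPM on both days. All 9 T cell genes (median 2.52) and all 6 general leukocyte genes (median 2.34) were also called higher at Day+7 than at Day+3, with summed T cell levels of 145 to 800 CPM at Day+7 against 39.7 to 104 CPM at Day+3. At Day+3, when E2f2 was lower than at Day-1, 4 of the 6 leukocyte genes were called higher and 1 lower (median 0.272). Of the 9 T cell genes, 0 were called higher and 3 lower then (median -0.224). The summed T cell level had medians of 95.4 CPM at Day-1, 72.3 at Day+3 and 351 at Day+7, the order of days that E2f2 had. Its ranges at Day-1 and Day+3 overlapped. The summed level of 4 B cell genes took the other order, with medians of 15.3 CPM at Day-1, 19.6 at Day+3 and 9.92 at Day+7. The part of these cells in the E2f2 change was not tested.

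Ccne1 and Ccne2 encode the cyclins E that drive the G1 to S step, and they parted at Day+7. Ccne2 had 51.5 CPM at Day-1 (44.6 to 57.2), 25.4 at Day+3 (20.1 to 28.9) and 16.6 at Day+7 (13.8 to 22.6). Ccne1 had 32.1 CPM at Day-1 (22.9 to 36.6), 23.5 at Day+3 (19.3 to 29.4) and 34.6 at Day+7 (19.3 to 40.2). Ccne1 was called lower at Day+3 (-0.42, SE 0.0734) and higher at Day+7 than at Day+3 (0.52, SE 0.0863, adjusted p = 7.81e-07). Against Day-1 it was at 0.10 (SE 0.0714, adjusted p = 0.178) at Day+7, or 0.18 (adjusted p = 0.00452) without CT7_6, its lowest tumor then.

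**Figure D3:**
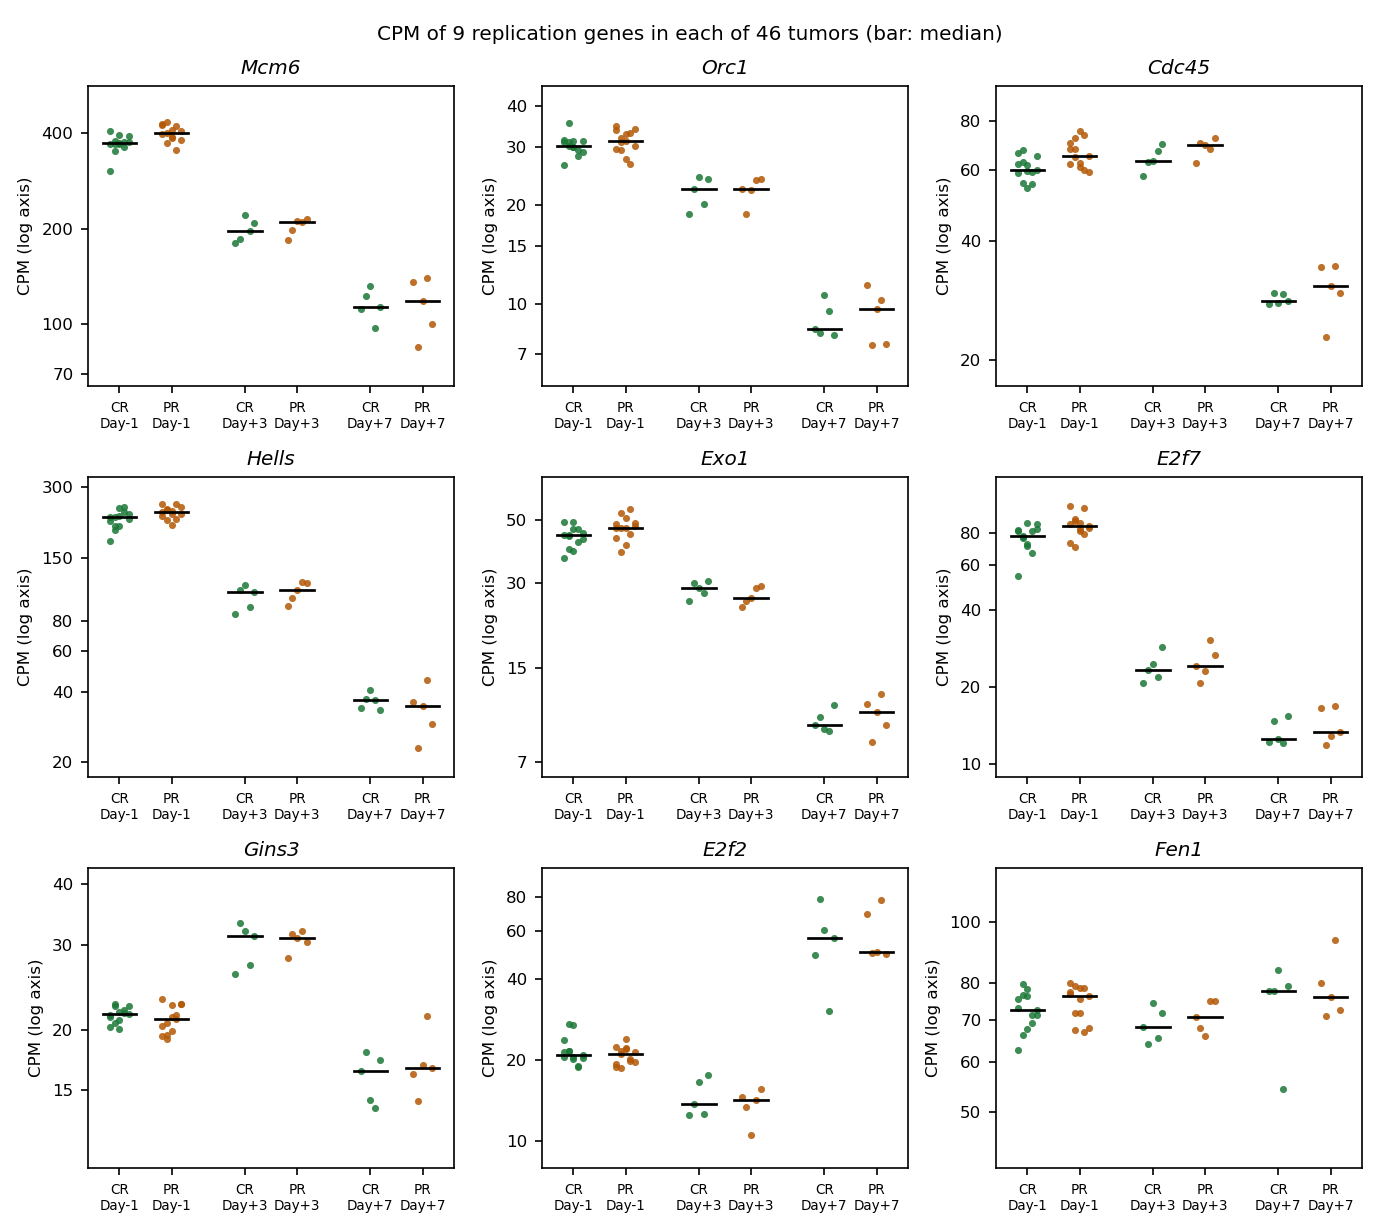
CPM on a log axis of 9 replication genes in each tumor, CR (green) left of PR (brown) on each day, with the group median as a bar. Mcm6, Orc1, Hells, Exo1 and E2f7 stepped down on both days; Cdc45 stepped down only at Day+7; Gins3 was highest at Day+3 (26 to 33.3 CPM), E2f2 at Day+7 (30.2 to 79.1 CPM), and the Fen1 ranges of the 3 days overlapped, with CT7_6 lowest (54.4 CPM).

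All 5 genes that copy chromatin were called lower in both steps. Hells, a chromatin remodeller needed for DNA methylation, had the largest drop of the 40 over the whole course. Its median was 228 CPM at Day-1 (176 to 255), 108 at Day+3 (85.9 to 118) and 35.4 at Day+7 (22.9 to 45.0), a log2 fold change of -2.69 (SE 0.0692, adjusted p = 2.81e-33) at Day+7 against Day-1. Atad2, a chromatin cofactor of S phase, had the smallest p of the 40 at Day+3. It had 233 CPM at Day-1 (210 to 269), 85.6 at Day+3 (69.5 to 97.8) and 59.0 at Day+7 (48.9 to 71.7). Most of its fall thus came by Day+3, at -1.47 (SE 0.0488), with -0.46 (SE 0.0546) after that. Hells lost more in the second step, -1.58 (SE 0.0729), than in the first, -1.11 (SE 0.0619). Dnmt1, which copies DNA methylation, had 353, 188 and 129 CPM as medians of the 3 days. Chaf1a and Chaf1b, the subunits that place histones on new DNA, fell mainly in the second step, by -1.01 (SE 0.0624) and -0.96 (SE 0.0708).

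All 7 checkpoint and fork repair genes fell in both steps. Chek1, the kinase that holds the cell cycle when forks stall, had 45.5 CPM at Day-1 (36.0 to 55.3), 21.7 at Day+3 (18.5 to 24.8) and 11.1 at Day+7 (10.1 to 13.1). Blm, a helicase that unwinds crossed strands, changed much as Chek1 did, by -1.05 (SE 0.0545) and -0.91 (SE 0.0641). Exo1, a nuclease of mismatch repair and end resection, had 45.7 CPM (36.8 to 54.5), 28.0 CPM (24.7 to 30.3) and 9.73 CPM (8.21 to 12.1) on the 3 days, and its second step of -1.47 (SE 0.0634, adjusted p = 3.03e-24) had the smallest p of the 40. Msh6, which recognises mismatches, and Bard1, the partner of Brca1, also lost more in the second step, at -1.12 (SE 0.0511) and -1.45 (SE 0.0841), than in the first, at -0.40 (SE 0.0424) and -0.56 (SE 0.0685). Clspn, the adaptor that activates Chek1, had 99.1, 64.9 and 30.5 CPM at Day-1, Day+3 and Day+7. Dscc1, which loads the sliding clamp for cohesion, had 16.1, 11.6 and 6.02 CPM. None of the 7 had a fold change at Day+7 against Day-1 closer to 0 than -1.34.

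Replication genes outside the 40 were read from lists fixed by name. Of 13 tested genes of origin recognition, licensing and firing, 13 were called lower at Day+3 than at Day-1, with a median log2 fold change of -0.461. At Day+7 against Day+3, 7 were called lower and 3 higher, with a median of -0.073. The summed level of the list was 1530 to 1970 CPM at Day-1, 1040 to 1150 at Day+3 and 733 to 863 at Day+7, with no overlap between the days. Orc2, another subunit of the recognition complex, had a log2 fold change of -0.81 in the first step and -0.44 in the second. Mcmbp, which binds free MCM subunits, had -0.75 and then 0.29. Dbf4, the activator of Cdc7, and Ccna2, cyclin A, went on falling, with second steps of -1.49 and -1.70.

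Of 19 genes of the fork, chromatin assembly and mismatch repair, 16 were called lower and 2 higher at Day+3 (median -0.447), and 14 lower and 3 higher at Day+7 against Day+3 (median -0.571). Brca1 had -0.39 and then -1.56. Dna2, a nuclease of Okazaki fragments, turned round, with -1.52 at Day+3 and 2.42 at Day+7 against Day+3. Of 15 genes of nucleotide synthesis, 13 were lower and 2 higher at Day+3 (median -0.579), and 10 lower and 3 higher in the second step (median -0.319). Dck, a salvage kinase of lymphocytes, had -0.41 and then 1.02.

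Of 21 genes for G1 cyclins, their kinases and inhibitors and other E2F factors, 8 were called higher and 13 lower at Day+3 than at Day-1 (median -0.287), and 7 higher and 13 lower at Day+7 than at Day+3 (median -0.189). Cdkn1a, which encodes p21, stood at 99.7 to 144 CPM at Day-1 (median 115), 658 to 781 CPM at Day+3 (median 727) and 503 to 697 CPM at Day+7 (median 598). Neither later day overlapped Day-1, and the log2 fold change was 2.62 (SE 0.0463) at Day+3 and 2.33 (SE 0.0464) at Day+7 against Day-1. All 12 p53 targets tested were called higher at Day+3 (median 1.114), while 7 were higher and 4 lower at Day+7 against Day-1 (median 0.184). Mdm2, the inhibitor of p53, had 1.15 at Day+3 and 0.20 at Day+7 against Day-1. Ccnd1, cyclin D1, was at 1560 CPM at Day-1 (1330 to 1960), 1200 CPM at Day+3 (1100 to 1300) and 241 CPM at Day+7 (188 to 411). Foxm1, a transcription factor of G2 and mitosis, changed by -0.88 and then -1.56.

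Mitosis genes serve the cell cycle stage after S phase. Of 22, 15 were called lower and 4 higher at Day+3 than at Day-1 (median -0.393), and all 22 lower at Day+7 than at Day+3 (median -1.478). Mki67, the proliferation marker, had a log2 fold change of -1.51 at Day+3. Cdk1, the kinase of mitotic entry, had 222 CPM at Day-1 (182 to 265), 281 CPM at Day+3 (263 to 307) and 77.1 CPM at Day+7 (64.0 to 89.1), and was called higher at Day+3 than at Day-1 (0.33, SE 0.0438). The summed level of the 22 genes was 3880 to 5350 CPM at Day-1, 2760 to 3480 at Day+3 and 812 to 1380 at Day+7.

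The makeup of the tumors moved with time too. Msln, a mesothelial marker, was at 375 CPM at Day-1 (284 to 581), 344 CPM at Day+3 (292 to 439) and 59.2 CPM at Day+7 (51.0 to 127). Of 9 mesothelium and tumor markers 5 were tested, and 2 were called higher and 2 lower at Day+3 (median -0.122) and all 5 lower at Day+7 against Day-1 (median -2.546). Their summed level was 439 to 832 CPM at Day-1, 419 to 636 at Day+3 and 70.1 to 171 at Day+7. Summed levels of 8 macrophage genes were 1710 to 3870, 4390 to 6770 and 7820 to 9930 CPM, and those of 6 general leukocyte genes 616 to 1270, 1080 to 1520 and 2850 to 5350 CPM, in the same order of days. At Day+3, when 32 of the 40 replication genes were called lower, the ranges of the summed tumor markers overlapped those of Day-1, although Cdh2, an adhesion protein of these cells, did not (91.1 to 132 CPM at Day+3, against 148 to 217 CPM at Day-1). At Day+7 the replication genes and the tumor markers were both lower. The part of the tumor makeup in either fall was not tested.

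CR and PR tumors were compared within each day, to ask whether the response of the mouse went with the level of these genes. Before CY, 34 of the 40 genes had a lower estimate in CR than in PR tumors, where 52.7% of all 10777 genes tested did, and the differences were small. The median log2 fold change was -0.09, against -0.007 over all genes. None was called: edgeR's test at an FDR under 0.1 gave 0 of 40 lower and 0 of 40 higher (0.00928% and 0% of all genes). At an unadjusted p under 0.05, 19 of the 40 were lower and 0 higher, with 17.5% of all genes past that p. DESeq2 called 7 of the 40 lower and limma-voom 10, among all-gene counts of 211 lower and 232 higher, and 474 lower and 714 higher. Leaving out a single tumor gave 0 to 11 calls of the 40, with 11 without the PR tumor CT12, where 2.98% of all genes were called lower, and 6 without the PR tumor CT16, where 1.76% were.

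The 6 genes with the smallest p at Day-1 show the size of this difference. Atad2 had 210, 225 and 244 CPM as lowest, median and highest of the CR tumors and 223, 249 and 269 CPM in PR tumors (log2 fold change -0.15, SE 0.0309, adjusted p = 0.120). Dut had 82.7, 96.3 and 100 CPM in CR tumors and 86.5, 104 and 130 CPM in PR tumors (-0.15, SE 0.0436). The groups overlapped in each. Msh6 averaged 134 ± 5.81 CPM in CR and 146 ± 13.2 CPM in PR tumors (SD, n = 13 each). Cdc45 averaged 60.8 ± 4.17 in CR and 66.5 ± 5.23 CPM in PR tumors, and Chek1 43.2 ± 3.43 in CR and 47.4 ± 3.70 CPM in PR tumors. Mcm6 averaged 371 ± 25.0 CPM in CR and 401 ± 23.4 CPM in PR tumors, a log2 fold change of -0.11 (SE 0.0358, adjusted p = 0.152). No 95% interval of the 40 reached below -0.278 or above 0.173.

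The mean level of the 40 genes at Day-1 was 0.363 ± 0.0854 in CR and 0.439 ± 0.0824 in PR tumors (SD, n = 13 each), or 0.384 in CR without its lowest tumor, CT10. Other lists moved beside it, none with a gene called. Of the mitosis list, 13 of 22 genes were lower in CR at an unadjusted p under 0.05 (median -0.108). All 9 T cell genes were higher in CR at that p, with a median log2 fold change of 0.633. The summed T cell level was 56.6 to 195 CPM in CR and 36.8 to 145 CPM in PR tumors, and that of general leukocytes 720 to 1270 CPM in CR and 616 to 1020 CPM in PR tumors. The summed mesothelium and tumor markers were at 439 to 613 CPM in CR and 473 to 832 CPM in PR tumors. Skeletal muscle genes summed to 166 to 990 CPM in CR and 131 to 628 CPM in PR tumors. The part of these tissues in the difference was not tested.

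**Figure D4:**
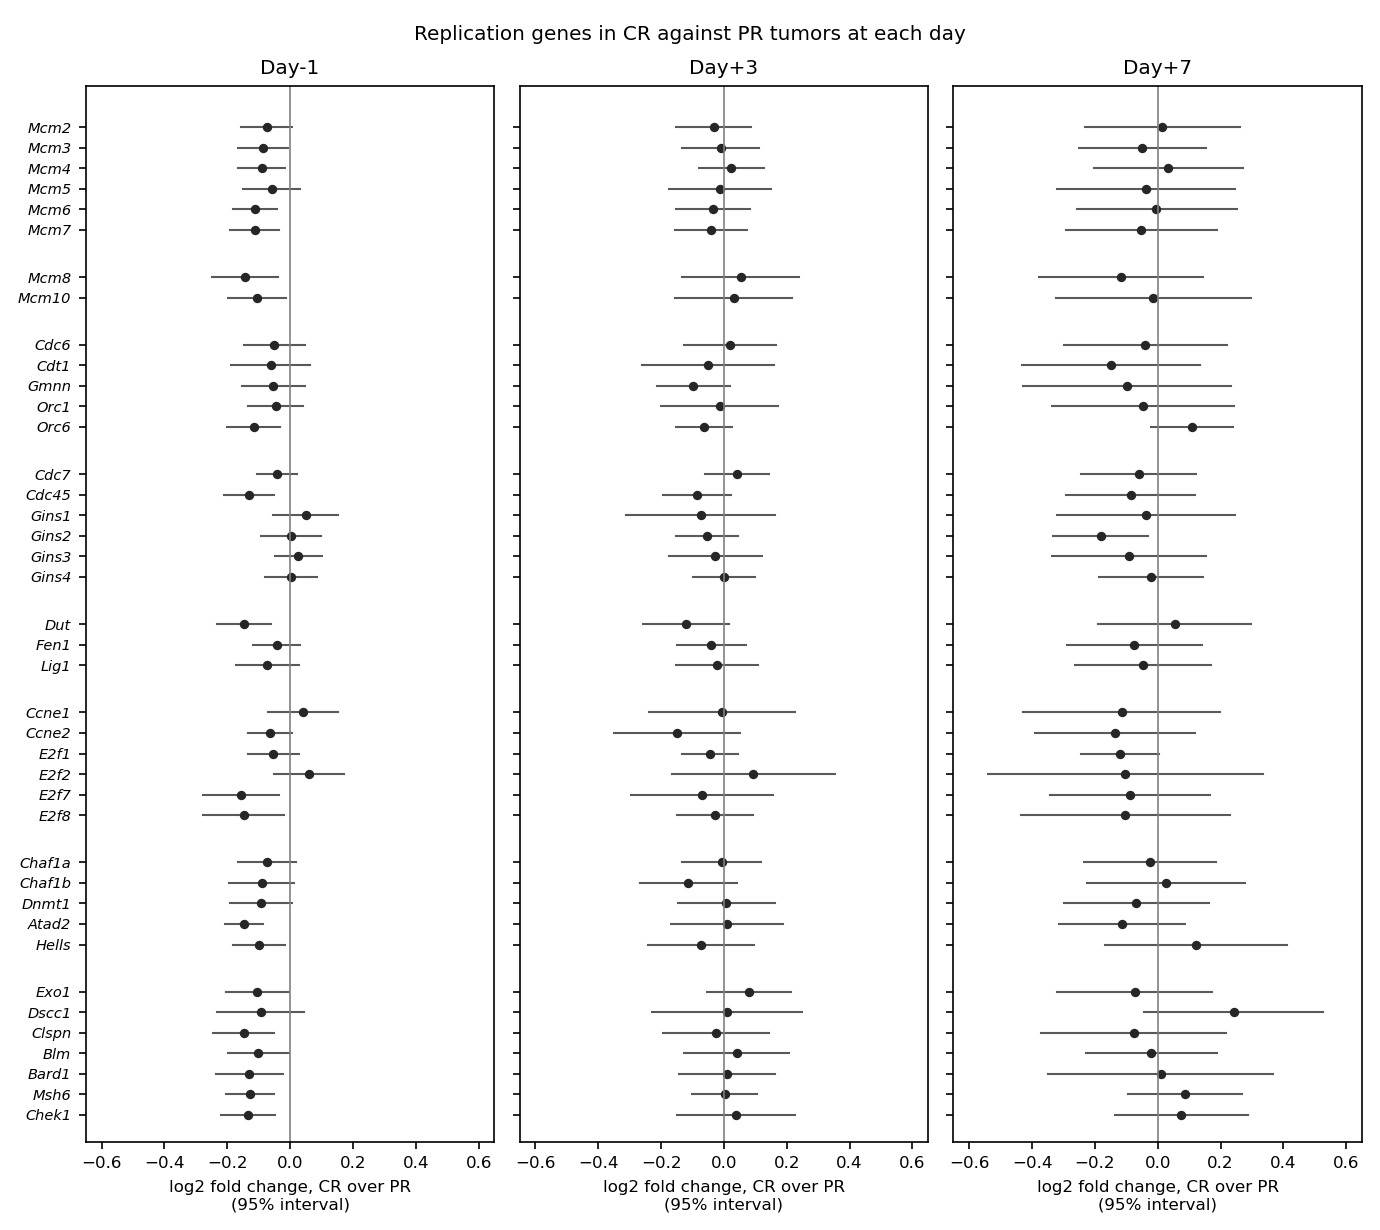
Log2 fold change of CR over PR for each of the 40 genes on each day, with 95% intervals (13 against 13 tumors at Day-1, 5 against 5 at Day+3 and Day+7). At Day-1, 34 points lie left of 0, none beyond -0.16; at the later days the intervals are wider, and 25 points at Day+3 and 30 at Day+7 lie left of 0.

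After CY the intervals between CR and PR were wider. The estimate was lower in CR for 25 of the 40 at Day+3 and for 30 at Day+7, where 50.7% and 48.8% of all genes had a lower estimate. At Day+3, 0 of the 40 were called in either direction (0% of all 11839 genes tested each way), and 0 passed an unadjusted p of 0.05, with 2.16% of all genes past it. DESeq2 and limma-voom called 0 of the 40. The median log2 fold change was -0.017, and Dut had the smallest p, with 78.5, 80, 90.1, 95.7 and 98.4 CPM in CR and 88.5, 89.7, 98.0, 102 and 104 CPM in PR tumors. These values overlap, and the log2 fold change was -0.12 (SE 0.0701, adjusted p = 1). At Day+7, 0 of 40 were called (0% of all 11727 genes each way), also with DESeq2, with limma-voom and without CT7_6, and Gins2 alone passed an unadjusted p of 0.05, with 2.84% of all genes past it. Gins2 had 60.1, 65.8, 68.3, 69.9 and 76.7 CPM in CR and 67.7, 76.6, 76.8, 80.9 and 85.7 CPM in PR tumors, a log2 fold change of -0.18 (SE 0.0769, adjusted p = 0.967). Dscc1 had the highest estimate for CR, 0.24 (SE 0.146), from 5.58, 6.20, 6.72, 7.36 and 8.12 CPM in CR and 4.89, 5.72, 5.73, 5.84 and 6.73 CPM in PR tumors. Without the Krt5-high tumors, which left 3 CR and 2 PR tumors, it was -0.02. In none of the 40 genes were CR and PR tumors free of overlap on any day.

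Whether the fall after CY differed by response was tested as the change in CR minus the change in PR. It was called for 0 of the 40 at Day+3 (0% of all genes in either direction, 0 of the 40 at an unadjusted p under 0.05). At Day+7 it was also called for 0 of the 40 (0.00758% of all genes higher and 0% lower). There, 5 of the 40 passed an unadjusted p of 0.05, where 11.5% of all genes did, so the count is near the background. Orc6 had the smallest p, with a difference of 0.22 (SE 0.0768, adjusted p = 0.336), which was 0.23 without the Krt5-high tumors. The other 4 shrank without those tumors: Msh6 had 0.21 with them and 0.03 without, Dscc1 0.32 and 0.10, Chek1 0.20 and 0.08, and Gins2 -0.19 and -0.10. DESeq2 and limma-voom called 0 of the 40 in both tests. With 5 tumors per group the intervals are wide: at Day+7 they reached from -0.540 to 0.527 over the 40 genes for CR against PR.

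Tumors of a group differed most at Day+7. The median SD of log2 CPM over the 40 genes was 0.124 in CR and 0.118 in PR tumors at Day-1, 0.119 in CR and 0.136 in PR tumors at Day+3, and 0.175 in CR and 0.232 in PR tumors at Day+7. For genes at least as abundant it was 0.184 in CR and 0.128 in PR tumors at Day+7. Among PR tumors of Day+7, Hells had the widest spread (SD 0.361), from 22.9 CPM in CT7_10 to 45.0 CPM in CT7_7, and the level of all 40 genes was lowest in CT7_10 (-1.10) and highest in CT7_7 (-0.62). In CR tumors of Day+7 E2f2 spread most (SD 0.511), and Cdc45 least (SD 0.0416).

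Some reads of some members may not be told from those of a neighbour. By GENCODE M21, 13 of the 40 share exon sequence positions with another gene: Mcm7 with Ap4m1, Cops6, Mir25 and Mir93, and Cdc45, Gins2, Fen1, Lig1, Orc1, Orc6, Ccne2, E2f7, E2f8, Chaf1a, Dscc1 and Msh6 with a gene on the other strand. Whether strand was used in counting is not given in the sources used here, so reads of a neighbour may be counted in these 13. The length of the overlaps was not measured.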

How the data were processed

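RNA of 46 tumors was sequenced as single-end reads, and the deposited table holds raw counts per gene and tumor that the authors made with kallisto against GRCm38.p6. The strand setting of the counting is not given in the sources used here, and the read length is given differently in the labels and the methods. The table as used holds 46012 entries in symbol order, of which 46011 were complete, so genes with later symbols (Pcna and the Rrm genes among them) were not analysed here. Depth is the total over the genes covered. Groups came from the sample labels.

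Counts were tested with edgeR 4.0.16 (R 4.3.3): filterByExpr, TMM and quasi-likelihood F tests, with Benjamini-Hochberg adjustment over all genes tested and an FDR of 0.1. CR and PR were compared within each day, and days were compared in 1 fit over 6 groups, which also gave CR minus PR changes. The SEs come from these tests. The 95% intervals were set from the SEs with the normal distribution, so with few tumors per group they are narrower than the tests imply. CPM used TMM library sizes. The level of the 40 genes used log2 CPM with a prior count of 2 and carries no test. Alternatives were DESeq2 1.42.0 (also its size factors in edgeR), limma 3.58.1 voom with quality weights, edgeR's revised quasi-likelihood method and library totals alone. Others were no filter, a minimum of 1 CPM, an FDR of 0.05, leaving out Krt5-high tumors, and leaving out each tumor. CR and PR were also compared with all 46 tumors in 1 model. At Day-1, a tumor number above 14 in the title was also used as a covariate. All Krt5-high tumors of Day-1 had a number above 14, so that split overlaps with Krt5.

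The 40 genes and the other lists were chosen with earlier results of these data known. All 40 could be named, with values by tumor for the 6 with the smallest p in a comparison. From each other list up to 3 genes with the smallest p, Krt5 and Cdkn1a could be named. Of 1035 pairs of tumors, 0 held identical counts. Scripts were tested on simulated counts.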

Additional observations from a re-analysis of the deposited data

Results flagged for a closer look

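In groups of 5 tumors, a tumor was singled out where its gap to the nearest tumor, as a share of the range of the group, passed the Dixon critical value of 0.71. Of 164 tests (40 genes and their mean level in 4 groups of 5), 9 passed. Chance alone passes about 1 in 20, which is near that number, if tests are independent. These were not, since the 40 genes were read in the same tumors, so the count cannot be weighed against chance. In CR tumors of Day+7, 7 of these 9 were the same tumor, CT7_6, each time as the lowest. For the helicase subunit Mcm5 the share was 0.866, with 77 CPM in CT7_6 and 105 CPM in the nearest tumor. The share was 0.836 for Ccne1 (19.3 and 33.8 CPM), 0.823 for Fen1 (54.4 and 77.7 CPM) and 0.771 for Mcm8 (6.22 and 8.15 CPM). It was 0.755 for Chaf1b (17.6 and 22.9 CPM), 0.726 for Gmnn (21.7 and 39.2 CPM) and 0.725 for Dnmt1 (104 and 128 CPM). This tumor also had fewer T cell transcripts than the others of its day (145 CPM, against 272 to 800) and more of mesothelium and tumor markers (171 CPM, against 70.1 to 94.7), and their part in its low replication genes was not tested.

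At Day+3, the CR tumor CT3_1 was lowest in Mcm4, with 128 CPM and a nearest value of 146 CPM (share 0.762). The CR tumor CT3_8 was highest in Dscc1, with 14.7 CPM and a nearest value of 11.6 CPM (share 0.827).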

How the results depend on the processing

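No paired analysis was possible because the labels pair no tumors across groups and each tumor came from a different mouse. The count of members called lower over time stayed within a narrow range: over the 55 alternatives it was 29 to 34 at Day+3 against Day-1, 35 to 38 at Day+7 against Day-1 and 36 to 38 at Day+7 against Day+3. Of all genes, the main edgeR fit called 39.6%, 42.8% and 36.5% lower in these comparisons. The shares were 33.1%, 48.9% and 52.3% with library totals alone and 20.4%, 24.6% and 20.8% without a filter. With library totals alone the medians of the members in the last 2 comparisons were -1.6 and -1.132.

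Members called higher at Day+3 against Day-1 numbered 1 in the main fit and 3 with DESeq2, voom, DESeq2 size factors and no filter. They numbered 5 without Krt5-high tumors, 6 with library totals alone and 1 to 3 leaving out single tumors. Of all genes, 37.9% were called higher in the main fit and 23.9% without a filter. With DESeq2, voom and DESeq2 size factors it was 39.8%, 39.9% and 39.7%. The share was 40.7% without Krt5-high tumors and 44.5% with library totals alone. At Day+7 against Day-1 members called higher numbered 1, then 3 with DESeq2, voom, DESeq2 size factors and without Krt5-high tumors. The same settings called 43%, 44%, 43.1%, 44.1% and 40.2% of all genes higher. Leaving out single tumors gave 1 to 3 members, with 3 without CT7_6. Members called lower in CR at Day-1 numbered 0, then 7 with DESeq2, 10 with voom and 1 with a title number above 14 as a covariate. The same settings called 0.00928%, 1.96%, 4.4% and 0.817% of all genes lower. Leaving out single tumors gave 0 to 11 members. They numbered 11 without CT12, 6 without CT16, 4 without CT8, 2 without CT25 and 1 without CT9. Of all genes, 2.98%, 1.76%, 1.48%, 1.23% and 0.129% were called lower there, in that order. The causes were not tested.

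These values changed sign. At Day+3 against Day-1, E2f1 (-0.009) was 0.023 with DESeq2, 0.024 with its size factors, 0.111 with library totals alone, 0.036 without a filter, 0.098 without Krt5-high tumors and -0.021 to 0.039 leaving out single tumors. Gins2 (0.013) was -0.015 with voom and -0.007 to 0.06 leaving out single tumors. Gmnn (0) was -0.009 with voom, -0.004 with the 1 CPM minimum and -0.016 to 0.048 leaving out single tumors. Library totals alone gave 0.016 for Dut, 0.008 for Gins1 and 0.048 for Fen1, and Fen1 was 0.004 without Krt5-high tumors. At Day+7 against Day-1, library totals alone gave -0.067 for Ccne1 and -0.109 for Fen1, and leaving out Krt5-high tumors gave 0.021 for Gmnn and 0.057 for Gins4. Fen1 was -0.157 with library totals alone at Day+7 against Day+3, and Dscc1 in CR against PR at Day+7 was -0.017 without Krt5-high tumors.

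With 5 tumors per group at Day+3 and Day+7, CR and PR differences inside the intervals given could not be told from 0.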
